A study of Mus musculus with 6 samples.

Results

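The 10 genes described here encode stromal chemokines (Ccl2, Ccl7, Ccl11, Cxcl1 and Cxcl12), cytokines (Il33 and Il6), inducible inflammatory enzymes (Nos2 and Ptgs2) and lipocalin-2 (Lcn2). They were taken by symbol from the 24411 genes of the table, and all 10 were found. RNA-seq was performed on total RNA of the Achilles tendon from C57BL/6 mice aged 18 weeks, with 3 libraries labelled WT and 3 labelled Scx-Cre/Piezo1 GOF. In the latter, Cre recombinase under control of Scx, a transcription factor gene of tendon cells and their progenitors, was combined with an allele of Piezo1 that gains function (GOF). Piezo1 encodes an ion channel that opens under mechanical force. The labels do not say whether the WT mice carried Cre or the unrecombined allele, nor whether each library came from a separate animal, so the p-values rest on the scatter of these libraries, part of which may be technical.

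Chemokines are small secreted proteins that guide leukocytes through G protein-coupled receptors, and fibroblasts of connective tissue are among their sources. CC chemokines such as Ccl2 and Ccl7 attract monocytes, Ccl11 attracts eosinophils, and CXC chemokines attract neutrophils (Cxcl1) or retain progenitor cells and lymphocytes (Cxcl12). Many genes of inflammation, among them Il6, Ptgs2, Nos2 and Lcn2, are held low at rest and are induced through NF-kB, C/EBP and AP-1 transcription factors after injury or exposure to cytokines. In tendon, such mediators are known from healing and from tendinopathy.

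Library totals lay between 8131527 and 17180856 counts. Levels are in CPM (counts relative to the TMM-normalised size of the library), log2 fold changes are Piezo1 GOF over WT with their standard error (SE), and p-values were computed with edgeR (quasi-likelihood) and adjusted over 13466 tested genes. Piezo1 itself was at 144, 115 and 103 CPM in WT and 178, 128 and 152 CPM in Piezo1 GOF, and an allele of this kind need not change the transcript level. Skeletal muscle markers (25 genes) took 9.05% to 16.7% of counts in WT and 2.88% to 7.70% in Piezo1 GOF, and tenocyte and fibroblast markers (16 genes) took 0.482% to 1.69% and 2.82% to 5.64%. Macrophage markers (15 genes) took 0.0170% to 0.0279% in WT and 0.0656% to 0.0935% in Piezo1 GOF. None of these 3 pairs of ranges overlapped (two-sided exact permutation p = 0.1 each, the smallest that 3 against 3 allows). In bulk tissue, fewer cells of a type and less RNA per cell cannot be told apart.

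**Figure D1:**
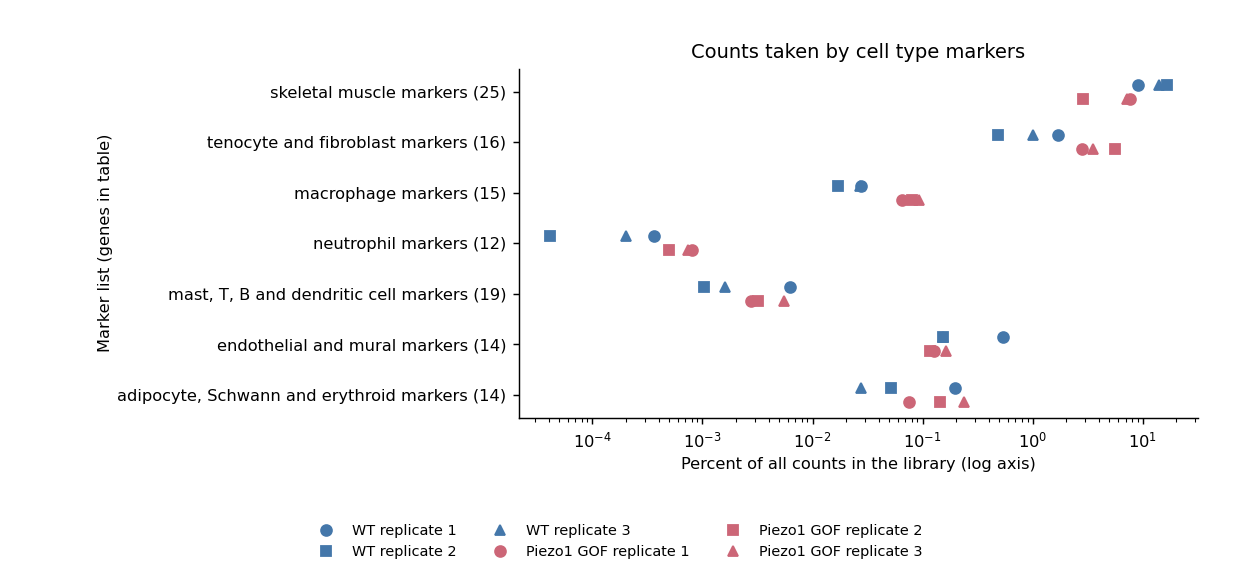
Percent of all counts in each library (log axis) taken by the markers of 7 groups of cell types, 1 point per library, with the number of marker genes found in the table in parentheses. Muscle markers were lower and tenocyte and macrophage markers higher in all 3 Piezo1 GOF libraries. The neutrophil list, at no more than 0.000799% of counts, was separated through the single gene S100a8. The other 3 lists overlapped between the genotypes.

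No member passed the adjusted threshold of 0.05 by edgeR, where 0.0149% of all tested genes were called. Of the 10 genes, 8 had enough counts to be tested and Cxcl1 and Il6 did not. Unadjusted p-values under 0.05 with higher levels in Piezo1 GOF were found for 5 of the 8 (Lcn2, Ccl2, Nos2, Il33 and Ccl7), against 10.2% of all tested genes, and for 0 with lower levels, against 9.59%. The same 5 genes had all 3 Piezo1 GOF libraries above all 3 WT libraries, against 13.6% of all tested genes. The median log2 fold change of the 8 was 1.69, beside -0.0045 over all tested genes. Ccl2, Ccl7 and Ptgs2 passed the count filter through the Piezo1 GOF libraries alone, so the counts and the median over tested members describe those genes and do not support a direction for the 10. The number with an unadjusted p under 0.05 was 3 without WT replicate 3 and 2, Lcn2 and Ccl2, with a muscle score as a covariate.

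**Figure D2:**
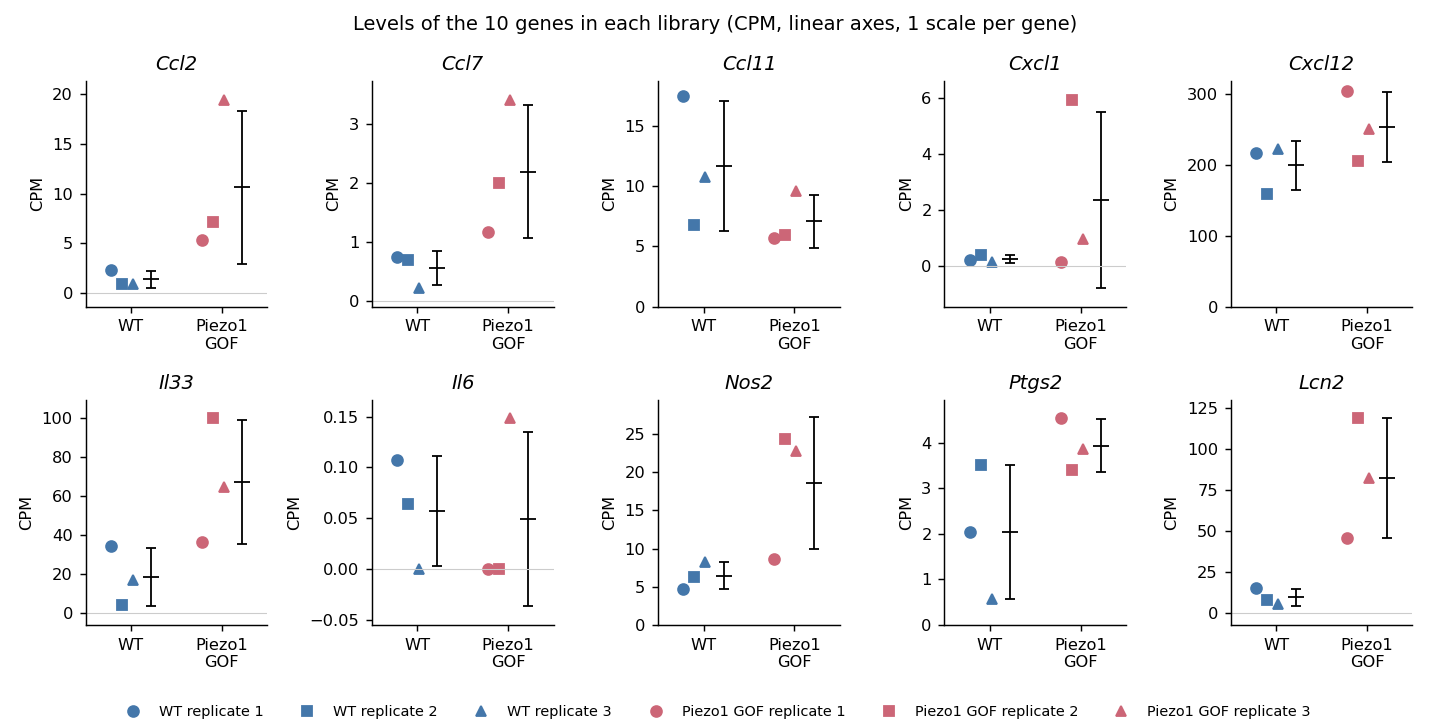
Level of each of the 10 genes (CPM, linear axes with a separate scale per gene) in the 6 libraries, with the mean and SD of each genotype (n = 3) as black bars. Lcn2, Ccl2, Nos2, Il33 and Ccl7 do not overlap between genotypes, whereas Ccl11, Cxcl12, Ptgs2, Cxcl1 and Il6 do.

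The CC chemokines of the Ccl2 cluster differed among themselves. Ccl2, the principal monocyte chemoattractant, had counts of 22, 14 and 8 in WT (replicates 1, 2 and 3, the order used throughout) against 41, 71 and 262 in the mutant. These correspond to 2.36, 0.894 and 0.905 CPM and to 5.33, 7.12 and 19.4 CPM. Every mutant library lay above every WT library, and Piezo1 GOF replicate 3 stood well above the other mutant libraries. The log2 fold change was 2.96 ± 0.63 (SE), a fold of 7.77 (edgeR adjusted p = 0.103), and it was 2.18 without Piezo1 GOF replicate 3. It passed the threshold without WT replicate 1 (edgeR adjusted p = 0.0486) and by DESeq2 (adjusted p = 0.000325, where 3.73% of genes were called higher and 2.74% lower), and leaving out any other library gave adjusted p-values of 0.0919 to 0.269. With the muscle score as a covariate the fold change was 2.94 on the log2 scale (edgeR adjusted p = 0.400).

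Ccl7 is a chemokine that shares the receptor Ccr2 with Ccl2. Its counts were 7, 11 and 2 in WT and 9, 20 and 46 in Piezo1 GOF, or 0.752, 0.703 and 0.226 CPM against 1.17, 2.01 and 3.41 CPM. Again replicate 3 was the highest of the mutant libraries. The groups did not overlap, yet the counting intervals of the closest libraries did, 0.302 to 1.55 CPM in WT replicate 1 and 0.535 to 2.22 CPM in Piezo1 GOF replicate 1 (95% exact Poisson, counting error only). The log2 fold change was 1.94 ± 0.68 (edgeR adjusted p = 0.188).

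Ccl11 (eotaxin-1), an attractant of eosinophils made by fibroblasts, was at 17.5, 6.77 and 10.7 CPM in WT and 5.72, 5.92 and 9.64 CPM in the mutant. The groups overlapped, and WT replicate 1 was the highest. The log2 fold change was -0.70 ± 0.40 (edgeR adjusted p = 0.352). It lay between -0.99 and -0.26 when single libraries were left out, and without WT replicate 2 its unadjusted p was 0.0296. Mast cell genes were also highest in WT replicate 1, where Mcpt4 was at 12.1 CPM against 0.339 to 2.22 CPM in the other 5 libraries, and their part in the Ccl11 level was not tested.

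Counted within a library, the ratio of Ccl2 to Ccl11 reads does not depend on scaling. There were 0.135, 0.132 and 0.0842 Ccl2 counts per Ccl11 count in WT and 0.932, 1.20 and 2.02 in Piezo1 GOF. On the log2 scale the ratio was -3.13 ± 0.38 (SD, n = 3) in WT and 0.39 ± 0.57 in the mutant, a difference of 3.52 with no overlap (two-sided exact permutation p = 0.1, the smallest possible). For Ccl7 to Ccl11 the difference was 2.68 (exact permutation p = 0.1), and for Ccl2 to Ccl7 it was 0.84 with overlapping groups (exact permutation p = 0.2). The ratio of a pair so chosen, with these values known, is a description.

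All 3 genes lie on the plus strand of chromosome 11 in the mm10 build, Ccl2 at 82035571 to 82037453, Ccl7 at 82045712 to 82047525 and Ccl11 at 82057823 to 82062955. Their annotated transcripts shared no stretch of 31 bases with each other. Ccl2 overlaps the antisense gene Gm17268, and whether counting used strand is not given in the sources used here, so part of its reads may belong to that gene. The cluster goes on with Ccl12 and Ccl8, 66.3 and 79.6 kb from the start of Ccl2. Ccl12, a further Ccr2 ligand of the mouse, was too low to be tested, at 0.967, 0.319 and 0.339 CPM in WT and 0.780, 1.30 and 6.82 CPM in Piezo1 GOF. Ccl8 was at 2.26, 0 and 1.02 CPM in WT and 5.33, 4.21 and 6.005 CPM in Piezo1 GOF, without overlap (log2 fold change 2.30 ± 0.98; edgeR adjusted p = 0.244). Ccl2, Ccl7, Ccl12 and Ccl8 each had the highest value in Piezo1 GOF replicate 3, and Ccl11 in WT replicate 1.

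**Figure D3:**
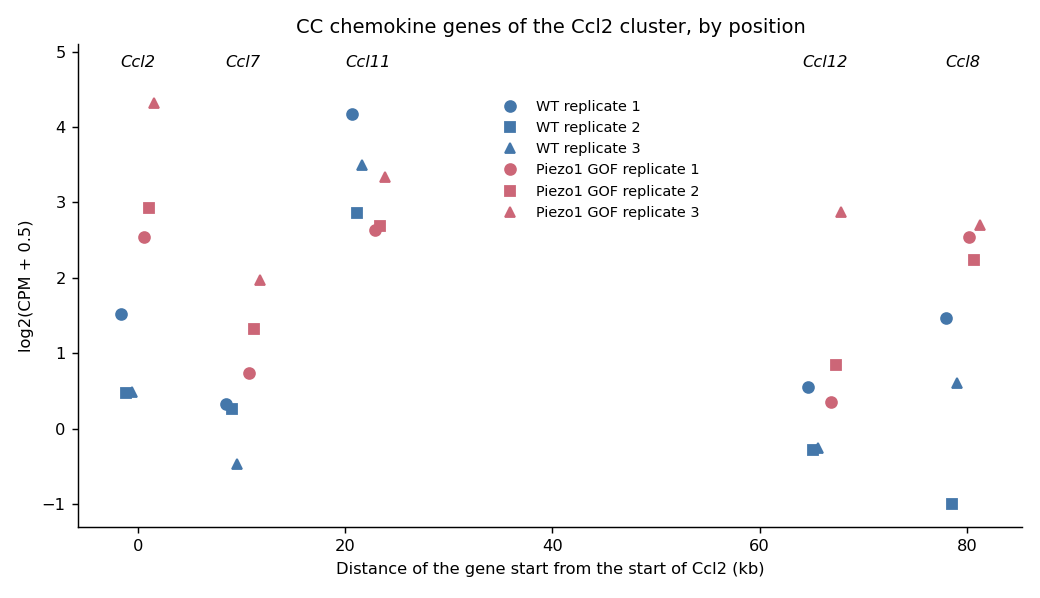
Levels of the 5 CC chemokine genes of the cluster, log2(CPM + 0.5), against the distance of each gene start from that of Ccl2 in kb, 1 point per library, with WT drawn to the left and Piezo1 GOF to the right of each position. Ccl2, Ccl7 and Ccl8 separate the genotypes, and Ccl11, at 22.3 kb, and Ccl12 do not.

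Cxcl12 (SDF-1), the ligand of Cxcr4 and Ackr3, had the highest level of the chemokines among the 10 genes, and its genotype groups overlapped. It was at 216, 160 and 222 CPM in WT and 304, 206 and 250 CPM in Piezo1 GOF. The log2 fold change was 0.35 ± 0.26 (edgeR adjusted p = 0.477) and lay between 0.19 and 0.50 when single libraries were left out. Per kb of exon, Cxcl12 made up 26.1%, 34.96% and 34.4% of the summed level of 37 chemokine ligands in WT (Ccl21a, whose near-identical copies leave its counts uncertain, was not included) and 25.9%, 15.99% and 13.9% in Piezo1 GOF. The summed level itself was 55.8 to 101 CPM per kb in WT and 144 to 221 CPM per kb in Piezo1 GOF. Without Ccl21a, the smaller share of Cxcl12 thus went with higher levels of other ligands. Both separations rest on leaving Ccl21a out. Its levels were 121, 46.0 and 0 CPM per kb in WT and 0, 156 and 0.0852 CPM per kb in Piezo1 GOF. With it, the sums and the Cxcl12 shares overlap between genotypes. Cxcl12 lies on chromosome 6 at 117168535 to 117181367, plus strand. By the root mean square difference of centred log2 CPM over the 6 libraries, the genes nearest to it among 10958 were the matrix gene Tnxb (0.0676), Nfkb2 (0.0800), Chpf2 (0.0841), Usb1 (0.0877) and Fam129a (0.0968), against a median of 0.454.

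Cxcl1, the neutrophil attractant, had 13 or fewer counts in 5 of the 6 libraries. Its counts were 2, 6 and 1 in WT and 1, 59 and 13 in Piezo1 GOF, or 0.215, 0.383 and 0.113 CPM against 0.130, 5.92 and 0.964 CPM. A single library, Piezo1 GOF replicate 2, held most of the reads, with a 95% Poisson interval of 4.51 to 7.63 CPM, and Piezo1 GOF replicate 1 lay within the WT range. The gene failed the count filter and the levels gave a two-sided exact permutation p of 0.3. Its receptor gene Cxcr2 had no counts in 5 libraries and 0.226 CPM in WT replicate 3.

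The promoter of Cxcl1 is printed here with that of Il6, the member with the fewest reads, because both hold the NF-kB consensus (a motif of 10 letters, searched on both strands), which occurs in 8.46% of 32851 RefSeq promoter windows of 300 bases (250 before the start and 50 after it). Windows were matched for 6 of the 10 genes (Cxcl1, Cxcl12, Il33, Il6, Ptgs2 and Lcn2). Il33, higher in the mutant libraries, is shown for comparison. Sequences are the 250 bases before the RefSeq start (GRCm38.p6, the assembly of mm10), 5′ to 3′ on the gene's strand, with motif matches in capitals. In Cxcl1 (chr5:90890995-90891244, plus strand) the consensus matched on both strands, at positions -71 and -70 from the start in overlapping frames. In Il6 (chr5:30012864-30013113, plus strand) it matched at -44, beside AP-1 (TGACTCA or TGAGTCA, in 5.20% of windows) at -249 and C/EBP (TTNNGNAA, both strands, in 40.7% of windows) at -128. At the downstream of the 2 Il33 starts (chr19:29945540-29945789, plus strand) no NF-kB consensus was found, C/EBP matched at -85 and -58, and TATAAA (sense strand, in 8.32% of windows) at -29. The other windows held no NF-kB consensus either, and Lcn2 (at -216) and Ptgs2 (at -69 and -25) held C/EBP matches. The window of the upstream Il33 start held C/EBP at -159 and TATAAA at -203.
Cxcl1: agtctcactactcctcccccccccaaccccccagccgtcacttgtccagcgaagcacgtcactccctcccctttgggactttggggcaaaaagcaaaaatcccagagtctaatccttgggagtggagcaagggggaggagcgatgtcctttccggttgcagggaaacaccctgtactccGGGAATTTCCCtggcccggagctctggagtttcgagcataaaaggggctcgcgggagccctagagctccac
Il6: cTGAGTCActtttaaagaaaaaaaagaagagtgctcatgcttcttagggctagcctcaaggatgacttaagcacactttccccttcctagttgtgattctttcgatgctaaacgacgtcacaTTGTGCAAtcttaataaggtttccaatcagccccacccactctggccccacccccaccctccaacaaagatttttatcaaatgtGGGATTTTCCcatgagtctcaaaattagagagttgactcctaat
Il33: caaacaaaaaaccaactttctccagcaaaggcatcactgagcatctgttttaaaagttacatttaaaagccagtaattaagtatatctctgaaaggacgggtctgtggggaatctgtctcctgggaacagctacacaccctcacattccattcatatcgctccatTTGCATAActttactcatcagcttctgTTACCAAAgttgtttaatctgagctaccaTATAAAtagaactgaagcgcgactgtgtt

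Il6, the interleukin that drives the acute-phase response through Il6ra and Il6st, was at or under 2 counts in every library. It had 1, 1 and 0 counts in WT and 0, 0 and 2 in Piezo1 GOF. Where the mutant count was 0, the upper limit was 0.480 CPM in replicate 1 and 0.370 CPM in replicate 2 (95% exact Poisson). No difference in Il6 was detectable at this depth. Its signal transducer Il6st lay at 432 to 657 CPM in WT and 393 to 492 CPM in the mutant, overlapping (log2 fold change -0.26 ± 0.29; edgeR adjusted p = 0.631). Il6ra was at 7.63, 34.7 and 9.39 CPM in WT and 7.22 to 12.6 CPM in the mutant. Its log2 fold change was -0.81 ± 0.55 and turned to 0.22 without WT replicate 2.

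Il33, a nuclear cytokine of fibroblasts and barrier cells that is released as an alarm signal on cell damage, was higher in Piezo1 GOF, with a wide spread in both groups. It was at 34.5, 4.53 and 17.1 CPM in WT and 36.8, 99.9 and 64.9 CPM in Piezo1 GOF. WT replicate 1 and Piezo1 GOF replicate 1 were nearly level, and their counting intervals overlapped (30.8 to 38.5 and 32.6 to 41.3 CPM, 95% Poisson). On the log2 scale the difference was 1.86 ± 0.63 (edgeR adjusted p = 0.184), and DESeq2 gave an adjusted p of 0.0279. WT replicate 2, the lowest library for Il33, had the highest share of muscle markers (16.7%), and Piezo1 GOF replicate 2, the highest, had the lowest share (2.88%). Tenocyte and fibroblast markers were likewise lowest in that WT library (0.482%) and highest in that mutant library (5.64%). With the muscle score as a covariate the log2 fold change was 0.89 (edgeR adjusted p = 0.733). Muscle content, fibroblast content and genotype changed together here, and their parts in the difference were not tested further. Transcripts of Il1rl1, which encodes the Il33 receptor ST2, were at 0.830 to 3.54 CPM in WT and 2.73 to 5.56 CPM in the mutant (log2 fold change 0.91 ± 0.60; edgeR adjusted p = 0.420), and those of its partner Il1rap at 9.07 to 14.5 and 7.82 to 10.4 CPM (-0.31 ± 0.29; edgeR adjusted p = 0.580).

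Lcn2, a secreted siderophore-binding protein made by neutrophils and by stromal and epithelial cells under inflammation, showed a log2 fold change close to that of Ccl2. Its counts were 145, 123 and 47 in WT and 353, 1184 and 1114 in Piezo1 GOF. In CPM the libraries stood at 15.6, 7.86 and 5.32 in WT and at 45.9, 119 and 82.6 in Piezo1 GOF, so the lowest mutant library was clear of the highest WT library, also by their counting intervals. The fitted log2 difference was 3.11 ± 0.47, a fold of 8.62, and missed the threshold over all genes (edgeR adjusted p = 0.0572). It passed without WT replicate 1 (edgeR adjusted p = 0.0227) and by DESeq2 (adjusted p = 5.25e-09) and limma voom (adjusted p = 0.0252), and not without any other single library (0.0832 to 0.206). With the muscle score as a covariate it was 2.41 (edgeR adjusted p = 0.268).

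Neutrophil genes were near 0. Among 12 neutrophil markers in the table only S100a8, Csf3r and Mmp9 were tested, and the granule genes Mpo, Elane, Camp, Ngp and Ltf were at 0 to 0.910 CPM in every library. S100a8, a calcium-binding alarmin, was at 0.107, 0.0639 and 0.226 CPM in WT and 2.99, 3.51 and 1.93 CPM in the mutant, and its partner S100a9 at 0 in 5 libraries and 0.390 CPM in Piezo1 GOF replicate 1. The summed neutrophil list took 4.07e-05% to 0.000364% of counts in WT and 0.000497% to 0.000799% in Piezo1 GOF (exact permutation p = 0.1). This separation rests on S100a8. That gene had 35 counts in Piezo1 GOF replicate 2, the lowest mutant share, and 1 in WT replicate 1, the highest WT share. Csf3r and Mmp9 overlapped between genotypes. The part of neutrophils in the Lcn2 difference was not tested. Genes with the pattern nearest to that of Lcn2 over the 6 libraries, among 10958 with a mean of at least 5 CPM, were Wfdc21 (0.425), Wif1 (0.437), Tshr (0.449), Brinp3 (0.455) and Serpina3m (0.459), with a median of 1.69 for the root mean square log2 difference.

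Nos2, the inducible nitric oxide synthase of macrophages and activated stromal cells, was higher in Piezo1 GOF, chiefly in replicates 2 and 3. It was at 4.73, 6.32 and 8.26 CPM in WT and 8.58, 24.4 and 22.7 CPM in Piezo1 GOF. Piezo1 GOF replicate 1 lay just above WT replicate 3, with overlapping counting intervals (6.64 to 10.9 and 6.47 to 10.4 CPM, 95% Poisson). This is a log2 fold change of 1.53 ± 0.42 (edgeR adjusted p = 0.139), DESeq2 gave an adjusted p of 0.0206, and the muscle score as a covariate lowered it to 1.16. The other nitric oxide synthases, looked at after the values were seen, were lower in the mutant without passing the adjusted threshold. Nos1, the neuronal and muscle form, was at 19.5 to 67.1 CPM in WT and 5.32 to 17.8 CPM in the mutant (-1.96 on the log2 scale), and Nos3, the endothelial form, at 24.55 to 44.5 and 16.05 to 23.8 CPM (-0.74). Both pairs of ranges were free of overlap, and muscle markers were lower in the same libraries.

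Ptgs2 (cyclooxygenase-2), the inducible enzyme of prostaglandin synthesis, was at 2.04, 3.51 and 0.566 CPM in WT and 4.55, 3.41 and 3.86 CPM in Piezo1 GOF. The groups overlapped, since WT replicate 2 lay above Piezo1 GOF replicate 2. Its log2 fold change was 0.91 ± 0.61 (edgeR adjusted p = 0.427), and 0.48 to 1.58 when single libraries were left out, with an unadjusted p of 0.0477 without WT replicate 2. Its constitutive counterpart Ptgs1, chosen after the values were seen, was at 26.4 to 38.6 CPM in WT and 14.95 to 29.9 CPM in the mutant (-0.52 on the log2 scale). Lcn2 lies on chromosome 2 (32384633 to 32388252, minus strand), Ptgs2 on chromosome 1 (150100031 to 150108227), Nos2 on chromosome 11 (78920787 to 78960254), Il33 on chromosome 19 (29925114 to 29960718), Il6 on chromosome 5 (30013114 to 30019981) and Cxcl1 on chromosome 5 (90891241 to 90893115), the last 5 on the plus strand of mm10.

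**Figure D4:**
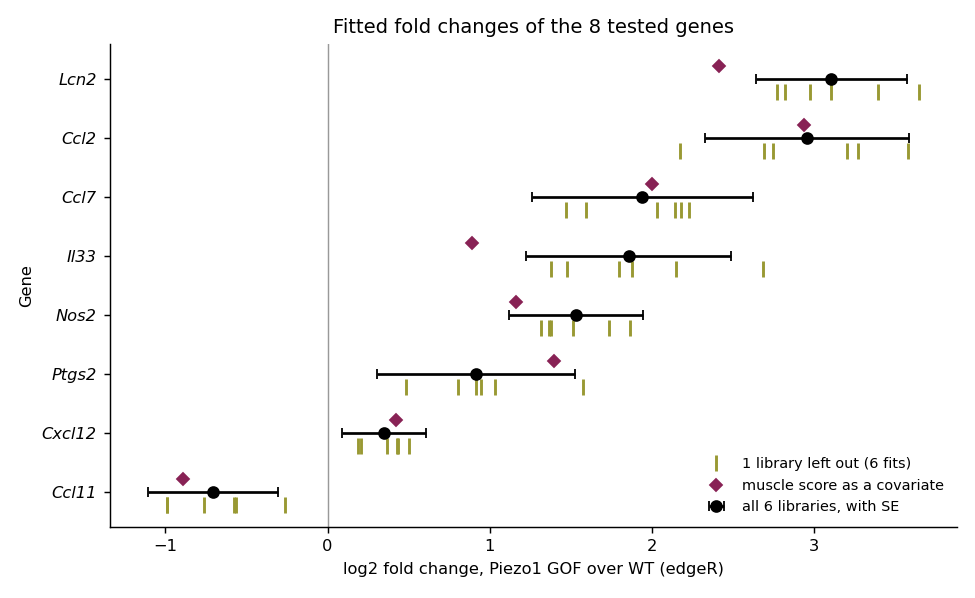
Log2 fold change of Piezo1 GOF over WT for the 8 tested genes (black points, bars 1 SE), with the values when 1 library was left out (green ticks) and with a muscle score as a covariate (purple diamonds). Each gene kept its sign in all 7 of these fits, and the covariate moved Il33 most, from 1.86 to 0.89.

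Per kb of exon, Cxcl12 led the order in WT at 24.4 ± 4.23 CPM per kb (SD, n = 3), clear of Ccl11 at 10.8 ± 5.02. Il33 (6.48 ± 5.21) and Lcn2 (3.65 ± 2.04) followed, and Nos2, Ccl2, Ccl7 and Ptgs2 lay between 0.445 and 1.46 CPM per kb, each overlapping its neighbour in the order. In Piezo1 GOF, Lcn2 (31.4 ± 13.9) and Cxcl12 (30.995 ± 6.05) stood together at the top and were not separable, followed by Il33 (23.3 ± 10.96) and Ccl2 (9.34 ± 6.74). The mean of Lcn2 was thus below that of Cxcl12 in WT and slightly above it in the mutant. Likewise, the mean of Ccl2 was below that of Ccl11 in WT and above it in the mutant. In the mutant, each of these pairs overlapped. Il6 was the lowest in both genotypes, at 0.0235 and 0.0204 CPM per kb.

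Among further chemokine ligands, 12 of 15 tested had a positive log2 fold change, beside 6691 of all 13466 tested genes. The list holds 33 genes, of which 15 were tested, 0 passed the adjusted threshold, and 7 had an unadjusted p under 0.05 and a higher level while 0 had a lower one (1 without Piezo1 GOF replicate 2; all tested genes: 10.2% and 9.59%), with a median log2 fold change of 1.33. Of these 7, 4 passed the count filter through the mutant libraries alone, so the count and median support no direction for the list. Pf4, a platelet and macrophage chemokine, was at 4.98 to 10.96 CPM in WT and 27.7 to 35.01 CPM in Piezo1 GOF (1.99 ± 0.31; edgeR adjusted p = 0.0572). Cxcl16, the ligand of Cxcr6, was at 6.58 to 17.4 and 29.3 to 46.2 CPM (1.55 ± 0.37; edgeR adjusted p = 0.117), and Cx3cl1, the ligand of Cx3cr1, at 5.43 to 10.9 and 17.6 to 24.2 CPM (1.33 ± 0.31; edgeR adjusted p = 0.111). Ccl5, an attractant of T cells and monocytes, was at 0.107 to 0.447 CPM in WT and 1.56, 1.81 and 13.9 CPM in Piezo1 GOF (4.17 ± 1.02; edgeR adjusted p = 0.1203). Ccl6, Ccl8 and Ccl24 were the other 3. Every one of the 15 macrophage markers also had a positive log2 fold change (all tested genes: 6691 of 13466), with a median of 1.69. How much of the chemokine levels comes from macrophages was not tested.

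Chemokine receptors had log2 fold changes of both signs. Of 23 receptors 11 were tested and 0 passed after adjustment, with an unadjusted p under 0.05 for 4 that were higher and 1 that was lower (10.2% and 9.59% of all tested genes), and a median of 0.31. The higher ones included the monocyte and macrophage receptors Ccr2 (0.575 to 4.751 CPM in WT, 4.55 to 10.2 CPM in Piezo1 GOF) and Cx3cr1 (0.894 to 5.09 and 8.13 to 18.5 CPM) and the scavenger Ackr4. Ccr2, the receptor of Ccl2 and Ccl7, had a log2 fold change of 1.52 ± 0.67 (edgeR adjusted p = 0.252), and 3 of the 4 had reached the count filter only in the mutant. Cxcr6 was the lower one, at 5.16 to 6.90 CPM in WT and 2.52 to 2.99 CPM in Piezo1 GOF (-1.12 ± 0.36; edgeR adjusted p = 0.173), and its p was no longer under 0.05 without WT replicate 3. Ccr3, the eotaxin receptor of eosinophils, had 0 counts in all 6 libraries, where 3 counts would be 0.192 to 0.390 CPM. Cxcr4 (3.44 to 6.22 and 3.26 to 7.82 CPM) and Ackr3 (61.9 to 109 and 82.1 to 126 CPM), the receptors of Cxcl12, overlapped between genotypes.

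Among 36 other cytokines, 15 were tested, of which 0 passed after adjustment and 4 had an unadjusted p under 0.05 and a higher level, with 0 lower (all tested genes: 10.2% and 9.59%) and a median of 0.61. Csf1, the growth factor of macrophages, was at 48.0 to 60.8 CPM in WT and 82.8 to 130 CPM in Piezo1 GOF (0.99 ± 0.23; edgeR adjusted p = 0.109). Tslp, an epithelial and stromal cytokine of type 2 immunity like Il33, was at 1.53 to 1.72 and 3.51 to 4.596 CPM (1.28 ± 0.43; edgeR adjusted p = 0.180), and Il15 and Il16 were the remaining 2. The count higher was 2 without Piezo1 GOF replicate 3, and the count lower was 1 when either WT replicate 3 or mutant replicate 1 was left out. Of 27 tested cytokine receptors and signal transducers, 5 had an unadjusted p under 0.05 and a higher level and 0 a lower one, beside 10.2% and 9.59% of all tested genes. None passed after adjustment by edgeR, and the median was 0.19. They included Csf2ra (1.64 ± 0.37), Csf1r (1.33 ± 0.36), Il11ra1 (0.89 ± 0.30) and Il1r1 (0.71 ± 0.25), with edgeR adjusted p-values of 0.106, 0.136, 0.185 and 0.189. Tlr2, named after its value was seen, was the fifth. Leaving out replicate 2 of either genotype, or WT replicate 3, gave 3 genes.

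In the prostanoid and nitric oxide pathway, 35 of 42 genes were tested and 0 passed after adjustment, with an unadjusted p under 0.05 for 8 that were higher and 4 that were lower, and a median of 0.23. Over all tested genes these shares were 10.2% and 9.59%, and the share of lower genes was near the background. Of the 8 higher genes, 1 passed the count filter through the mutant libraries alone. Higher were the secreted phospholipase Pla2g5 (4.47 to 13.4 CPM in WT, 29.1 to 53.0 CPM in the mutant; 2.12 ± 0.41), the prostacyclin synthase Ptgis (47.65 to 133 and 238 to 576 CPM; 2.04 ± 0.46) and the leukotriene genes Alox5 (3.83 to 10.6 and 20.4 to 36.1 CPM; 2.001 ± 0.42) and Alox5ap (3.77 to 7.47 and 11.3 to 23.3 CPM; 1.64 ± 0.37), with edgeR adjusted p-values of 0.0877 to 0.104. The lower genes, named after their values were seen, were Nos1, Nos3 and both subunits of soluble guanylate cyclase, Gucy1a3 (-1.22) and Gucy1b3 (-1.35), the receptor of nitric oxide. The number lower was 2 without WT replicate 1. Endothelial and mural markers took 0.154% to 0.542% of counts in WT and 0.117% to 0.164% in Piezo1 GOF, with overlapping groups, and WT replicate 1 was the highest.

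In the list of NF-kB signalling genes and textbook targets, 36 of 39 genes were tested and 0 passed after adjustment, with an unadjusted p under 0.05 for 8 that were higher and 1 that was lower (Sod2, named after its value was seen), beside 10.2% and 9.59% of all tested genes, and a median log2 fold change of 0.24. Of the 8, Socs1 and Ch25h passed the count filter through the mutant libraries alone, so the count supports no direction for the list. The inhibitor Birc3 was at 6.67 to 7.30 CPM in WT and 11.7 to 14.2 CPM in Piezo1 GOF (0.94 ± 0.25; edgeR adjusted p = 0.135), and Tnfaip6, a hyaluronan-binding protein induced by TNF, at 5.77 to 6.13 CPM in WT and 10.5, 40.2 and 9.12 CPM in Piezo1 GOF (1.74 ± 0.55; edgeR adjusted p = 0.168). Haptoglobin (Hp), an acute-phase protein, was at 19.9 to 136 and 154 to 405 CPM (1.79 ± 0.62; edgeR adjusted p = 0.188). Ch25h, an oxysterol-making enzyme, overlapped between genotypes (2.45 ± 0.76; edgeR adjusted p = 0.167). The other 4 of the 8, the feedback inhibitor Socs1 (1.68), the signalling adaptor Traf1 (1.20), the NF-kB cofactor Bcl3 (0.77) and the kinase Ikbkb (0.47), did not overlap between genotypes. Other feedback inhibitors, Nfkbia (0.29) and Tnfaip3 (0.07), and the adhesion molecule Icam1 (0.15) did overlap. These 7 genes were chosen after their values were seen. The number higher was 5 without Piezo1 GOF replicate 2, 4 without Piezo1 GOF replicate 3, 12 without WT replicate 1 and 2 with the muscle score as a covariate. The number lower was 0 when replicate 1 or 2 of WT or replicate 3 of the mutant was left out, and 2 when replicate 1 of the mutant was.

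**Figure D5:**
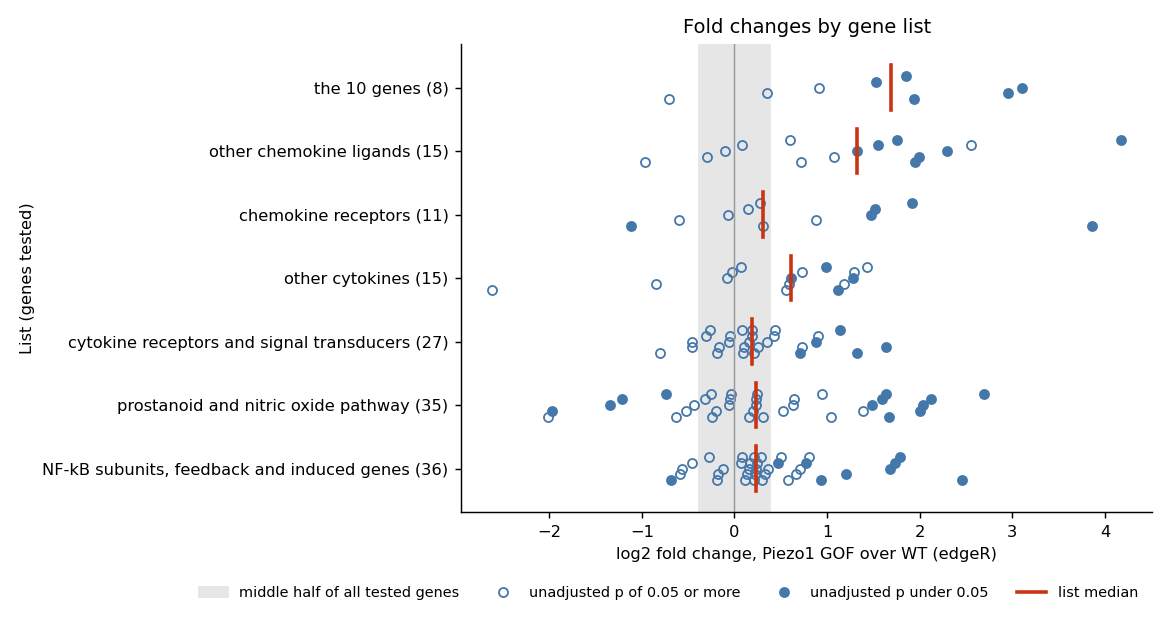
Log2 fold changes of Piezo1 GOF over WT for the tested genes of each list (number tested in parentheses), filled where the unadjusted edgeR p was under 0.05, with the list median as a red line and the interquartile range of all tested genes as a grey band. The medians of the 8 tested members (1.69) and of the other chemokine ligands (1.33) lie outside the band, and those of the NF-kB (0.24), prostanoid (0.23) and cytokine receptor (0.19) lists inside it. The member and ligand lists include genes that were tested through the mutant libraries alone, so their medians support no direction.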

How the data were processed

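The deposited table gives expected counts for each gene and library, on no common scale. Per the submitters' processing notes the authors used bcl2fastq, STAR, RSEM and edgeR with the mm10 build. No source used here gives versions, annotation or strand setting. Per the labels' protocols, libraries were made from total RNA with a RamDA-seq kit, so RNA without a poly(A) tail is also primed. Between 7.80% and 8.88% of each library's expected counts were not whole, and all were rounded, filtered with filterByExpr (minimum count 10), scaled by TMM and tested two-sided by the quasi-likelihood method of edgeR, with Benjamini-Hochberg adjustment over 13466 genes (threshold 0.05). With 3 libraries per group and a common dispersion of 0.113, the depth of 8131527 to 17180856 counts limits low genes most.

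Members, the 6 pathway lists and the 7 marker lists were chosen with earlier results of these data known. No list was given a test of its own. The text names all members, their receptors, the genes of each pathway list with the smallest p (up to 4), and the 5 genes nearest in pattern to Ccl2, Cxcl12 and Lcn2. A gene of the receptor list that the rule names is not reported here. Positions and exon lengths are from GENCODE release 21 of the mouse, matched by symbol for 95.6% of genes, and promoters are from RefSeq. Exon length is that of all annotated exons of a gene together, not of the transcripts expressed. Orders and shares per kb of exon therefore depend on the annotation. A planned comparison of protein sequences was not made. Alternatives were other scalings and filters, DESeq2, edgeR's exact test, weighted limma voom, a block for the replicate number, each library left out, a muscle score (mean log2 CPM of muscle markers) as a covariate, and muscle markers removed. The fit was tested on simulated counts. Libraries of a group differed by far more than counting noise (chi-square per degree of freedom 38.7 to 133). Software was R 4.3.3 (edgeR 4.0.16, limma 3.58.1, DESeq2 1.42.0) and Python 3.11.15 (numpy 2.4.6, scipy 1.17.1, pandas 2.3.3, matplotlib 3.10.9).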

Additional observations from a re-analysis of the deposited data

How the results depend on the processing

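Every tested member kept the sign of its log2 fold change in all 18 alternatives. The log2 fold change of Cxcr4 turned from 0.15 to -0.32 by limma voom, -0.02 without WT replicate 1, -0.21 without Piezo1 GOF replicate 2 and -0.26 with the muscle score as a covariate (-0.21 to 0.42 over single libraries left out), and the log2 fold change of Il6ra from -0.81 to 0.22 without WT replicate 2 and 0.30 with that covariate (-1.14 to 0.22 over single libraries left out). Over all genes, 2 were called higher and 0 lower by edgeR (1373 and 1291 at an unadjusted p under 0.05). The calls were 141 higher and 24 lower with no filter, 70 and 11 with the CPM filter, 514 and 377 by DESeq2, 453 and 232 by edgeR's exact test and 97 and 19 by limma voom, and 0 higher with total count scaling, the replicate block or the muscle score. With single libraries left out they ranged from 0 to 182 higher and 0 to 46 lower, the maxima without WT replicate 1. Members with an unadjusted p under 0.05 and a higher level numbered 3 to 6 with single libraries left out and 2 with the muscle score, and those with a lower level 0 to 1. Adjusted p-values of Lcn2 ran from 5.25e-09 to 0.268 over the alternatives, of Ccl2 from 0.000325 to 0.400, of Il33 from 0.0279 to 0.733 and of Nos2 from 0.0206 to 0.678. Of the 18 alternatives, the threshold was passed in 6 for Lcn2, 4 for Ccl2, 2 for Nos2 and 1 for Il33. It was never passed for Ccl7, Ccl11, Cxcl12 or Ptgs2. DESeq2 was among the passing ones each time, edgeR's exact test for Lcn2, Ccl2 and Nos2, and the fit with no filter for Lcn2 and Ccl2. The cause of these differences was not tested. Total count scaling moved the median of all genes to 0.10.

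With the replicate number as a block, no gene was called, and the adjusted p was 0.235 for Lcn2 and 0.291 for Ccl2. Deviations of libraries with the same number correlated at -0.21, -0.14 and -0.05, so the numbers were not taken to pair the samples. At 59 counts or fewer in every library, Cxcl1, Ccl7, Ptgs2 and Il6 are limited by depth. With no filter Cxcl1 had a log2 fold change of 3.16 (edgeR adjusted p = 0.199).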

Other observations

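Several chemokines outside the 10 genes, picked after their values were seen, were concentrated in Piezo1 GOF replicate 3, the library with the highest Ccl2. Ccl17, a ligand of Ccr4 made by dendritic cells, was listed at 0 in WT, whereas the mutant libraries had 0.650, 0.602 and 10.7 CPM. Ccl22, which shares that receptor, was at 0, 0 and 0.452 CPM in WT and 0, 0.201 and 4.30 CPM in Piezo1 GOF, and Ccl4 reached 3.11 CPM in the same library against 0.502 CPM or less elsewhere. Itgax, which encodes the integrin CD11c of dendritic cells, was at 14.9 CPM there and at 0.215 to 3.51 CPM in the other 5 libraries. The dendritic cell genes Flt3, Xcr1 and Ccr7 of the same marker list were not highest in that library. In Piezo1 GOF, Flt3 was at 0, 1.30 and 0.445 CPM, Xcr1 at 0.520, 0 and 0 CPM, and Ccr7 at 0.130, 0.301 and 0.297 CPM. The part of dendritic cells in these levels was not tested. The genes with the pattern nearest to Ccl2 were Pilra (root mean square log2 difference 0.370), Tmem45b (0.392), Lep (0.435), Mgl2 (0.463) and Ctss (0.483), with a median of 1.54 over 10958 genes.

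The acute-phase serum amyloid genes were nearly absent except in 2 mutant libraries. Saa1 was at 4.31 and 5.26 CPM in Piezo1 GOF replicates 2 and 3, and at 0.322 CPM or less elsewhere. Saa3 was at 1.003 and 3.34 CPM in those libraries and at 0.130 CPM or less elsewhere. Lcn2, Nos2 and Il33 were also highest in replicates 2 and 3 of Piezo1 GOF.

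Ccl21a, the lymphatic ligand of Ccr7, was at 105, 40.0 and 0 CPM in WT and 0, 135 and 0.0741 CPM in Piezo1 GOF, an on-off pattern that crosses the genotypes. Its near-identical copies make these estimated counts uncertain. Il1b was at 0 to 0.255 CPM in WT and 0.390, 0.702 and 1.93 CPM in Piezo1 GOF, and Tnf at 0.128 to 1.70 and 0.650 to 3.48 CPM with overlapping groups.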
